A study of Mus musculus with 4 samples.

Results

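The miR-200 family is a set of 5 mouse miRNAs, mmu-miR-200a-3p, mmu-miR-200b-3p, mmu-miR-200c-3p, mmu-miR-141-3p and mmu-miR-429-3p, written below without the species prefix. They were chosen by name, and all 5 were found among the 1809 miRNAs listed for all 4 libraries of the series. The libraries held small RNA of plasma exosome preparations from C57BL/6 mice. Exosomes are small vesicles released by cells, and here they were precipitated from plasma with a polymer reagent. All mice had been given LLC (Lewis lung carcinoma) cells, a tumour line that grows in C57BL/6 mice, into a vein, and plasma was taken on day 21. The mice were wild type (WT) or gp49B-/- (KO), lacking an inhibitory receptor of myeloid and other immune cells. No tumour-free group was analysed here, so all values describe tumour-bearing mice. Each genotype had 2 libraries, called here WT-1, WT-2, KO-1 and KO-2 by their pool number, from pools of 3 plasma samples in WT and 4 in KO, so the number pooled went with genotype. The labels do not say whether the pools of a genotype held different mice, so p-values measure only the spread between these libraries.

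Family members are made in epithelial cells of many organs and are low in most mesenchymal and blood cells. They repress the transcription factors Zeb1 and Zeb2, which in turn repress the miR-200 genes, and this mutual repression helps to keep cells epithelial. In tumours, loss of the family accompanies the epithelial-mesenchymal transition, and the miRNAs can also be found in the circulation. A miRNA pairs with its targets mainly through its seed, bases 2 to 8 from the 5′ end.

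The mature sequences of the 5 members, from RefSeq on GRCm38.p6, are shown 5′ to 3′ with the seed in capitals, because the seed divides the family into 2 target groups.
miR-200b-3p: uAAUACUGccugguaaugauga
miR-200c-3p: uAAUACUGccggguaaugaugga
miR-429-3p: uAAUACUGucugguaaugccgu
miR-200a-3p: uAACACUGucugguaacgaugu
miR-141-3p: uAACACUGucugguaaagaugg
The seed AAUACUG was held by miR-200b-3p, miR-200c-3p and miR-429-3p, and AACACUG by miR-200a-3p and miR-141-3p. Of 1679 mature miRNAs in the RefSeq table, 3 had the first seed and 2 the second, so no other miRNA of that table shared either. With positions counted from 1 at the 5′ end, miR-200b-3p and miR-200a-3p differed in the seed by U4C read from the former (C4U read from the latter). The closest pairs differed at 2 of 22 compared positions, miR-200a-3p from miR-141-3p by C17A and U22G, and miR-200b-3p from miR-200c-3p by U11G and A22G, where miR-200c-3p is also 1 base longer. The mismatches that the counting allowed are not stated in the labels, so the split of counts within these pairs is uncertain.

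The 5 hairpins lie in 2 clusters, all on the minus strand. On chromosome 4 of GRCm38, miR-200b-3p lies at 156055685 to 156055706, miR-200a-3p at 156054911 to 156054932 and miR-429-3p at 156053916 to 156053937. The 3 hairpins span 1846 bases within introns of Ttll10, a protein-coding gene on the same strand, and within the noncoding transcript Gm13648, of which the miR-429 hairpin overlaps an exon. On chromosome 6, miR-200c-3p lies at 124718324 to 124718346 and miR-141-3p at 124717917 to 124717938, with hairpins spanning 477 bases between the coding genes Phb2 and Ptpn6. Both lie in the GENCODE gene Gm15884, in no exon of it, and the miR-141 hairpin also overlaps an exon of Gm29008, a transcript of tentative status.

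The libraries differed in depth and in features that followed the pool number. Unique molecular identifiers (UMIs) tag single RNA molecules before amplification, and their totals ranged from 1607218 to 1729201 in pool 1 and from 3179081 to 3645842 in pool 2. Reads per UMI were 5.29 and 5.70 in pool 1 against 1.69 and 2.11 in pool 2. UMIs correct for copying during amplification but not for a ligase's preference between RNA ends, so levels of different miRNAs are compared here only as counted. All members were well above the middle of the libraries. They ranked from 85 to 134 of 1809 by UMI count in every library, while the median miRNA had 31 to 47 UMIs. Reads per UMI of the summed family were 5.99 and 6.36 in pool 1 and 1.75 and 2.20 in pool 2, slightly above each library as a whole.

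As a share of all miRNA UMIs, the family was higher in KO than in WT within each pool number, but the gap from pool 1 to pool 2 was wider than that from WT to KO. UMIs of the 5 members together numbered 2816 in WT-1 and 2824 in WT-2, against 4290 in KO-1 and 4131 in KO-2. The WT-1 share was 0.178% (95% interval by the exact binomial method, 0.172 to 0.185%) and that of KO-1 was 0.251% (0.243 to 0.259%). In pool 2 it was 0.0891% in WT (0.0858 to 0.0924%) and 0.114% in KO (upper bound 0.117%). These intervals, and all others below, cover counting error only and not the spread between mice or preparations. KO over WT ratios of the shares were 1.41 in pool 1 and 1.28 in pool 2, yet the share of WT-1 was above that of KO-2, so the genotypes overlapped. Without KO-1 the ratio of the genotypes' mean shares was 0.851, and without WT-1 it was 2.05, against 1.36 with all 4 libraries.

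How the pool numbers compared turned on the scaling. TMM, which sets libraries on a common scale by the middle range of miRNAs, gave the summed family 1052 CPM (UMIs at a common library size) in WT-1, 1552 in WT-2, 1670.1 in KO-1 and 1664 in KO-2. On this scale WT-1 was the low library and the other 3 lay close together. KO over WT was 1.59 in pool 1 (exact 95% interval 1.51 to 1.66) and 1.07 in pool 2 (1.02 to 1.13). The median of all miRNAs tested was 0.994 and 0.989, and that of the 352 averaging at least 100 UMIs was 1.09 and 0.980. TMM computed on those 352 alone gave the family 1.39 in pool 1 (1.32 to 1.46), below the first interval, and 1.09 in pool 2 (1.04 to 1.14). Scaled on total UMIs the medians of all miRNAs tested were 0.880 and 1.18, so the family's share ratios of 1.41 and 1.28 were above both, by less in pool 2.

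**Figure D1:**
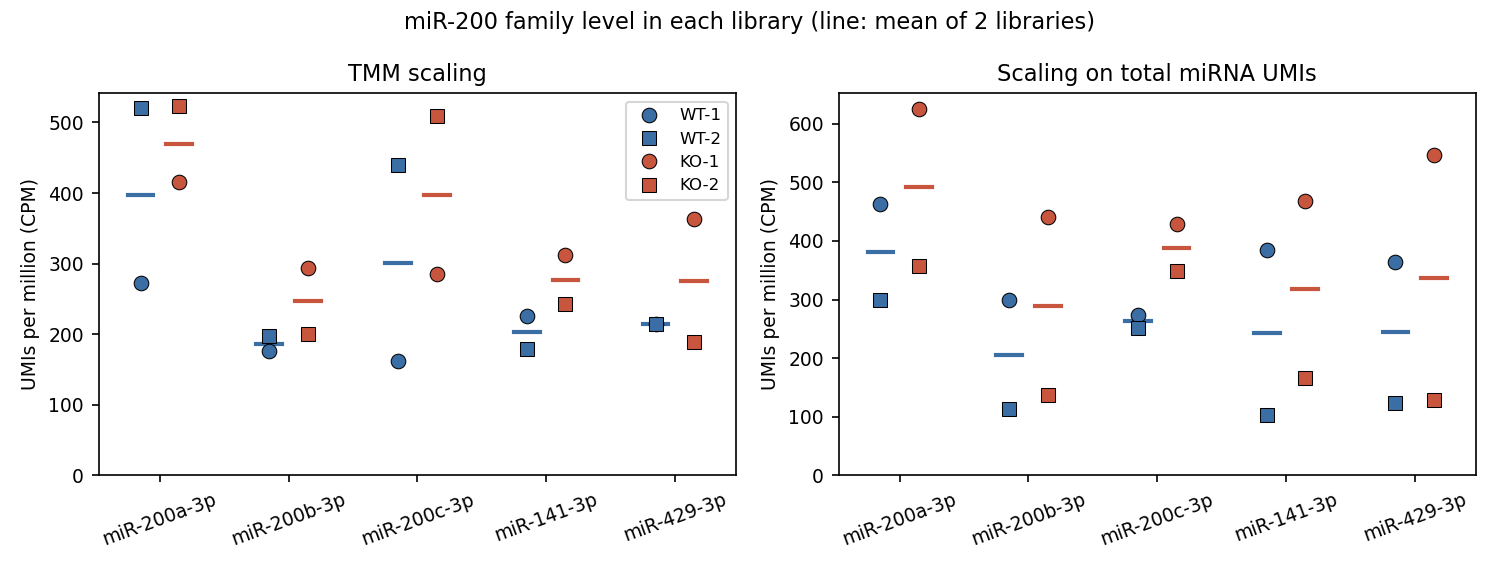
Level of each family member in each library, in CPM, after TMM scaling (left) and scaling on total miRNA UMIs (right); points are libraries and lines the means of 2 libraries per genotype. On the left miR-200c-3p runs from 162 in WT-1 to 509 in KO-2, whereas on the right pool 1 lies above pool 2 within each genotype for every member.

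Among the AAUACUG members, miR-200c-3p had the higher pool 2 counts. Its TMM-scaled levels were 162 CPM in WT-1, 439 in WT-2, 286 in KO-1 and 509 in KO-2. Both KO libraries were above the WT library of the same pool number, but the KO-1 level lay below WT-2, so the genotypes overlapped. The mean was 301 ± 196 CPM in WT and 397 ± 158 in KO (SD, n = 2 each). Its KO over WT ratio was 1.77 in pool 1 (1.57 to 1.99) and 1.16 in pool 2 (1.06 to 1.27). Scaled on total UMIs its genotypes did not overlap, with the lower KO library at 348 CPM and the higher WT library at 274 CPM.

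The other AAUACUG members come from the chromosome 4 cluster. For miR-200b-3p, levels were 176 and 197 CPM in WT-1 and WT-2 and 293 and 201 in KO-1 and KO-2. KO-1 stood above the other 3 libraries, which lay within 25 CPM of each other. Ratios were 1.66 in pool 1 (1.48 to 1.87) and 1.02 in pool 2 (0.886 to 1.17). For miR-429-3p, levels were 215 CPM in both WT pools, 363 in KO-1 and 189 in KO-2. KO thus lay above WT in pool 1, at a ratio of 1.69 (1.52 to 1.88), and below it in pool 2, at 0.879 (0.767 to 1.01). The pool 2 ratio of miR-429-3p was 1.05 (0.914 to 1.20) when scaled on total UMIs, so its side of 1 there depended on the scaling. On both scales it lay below the pool 2 median of all miRNAs tested, 0.989 with TMM and 1.18 on total UMIs.

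Of the AACACUG members, miR-200a-3p was the most abundant of the family in mean level. It had 273 and 521 CPM in WT-1 and WT-2 and 416 and 523 in KO-1 and KO-2. The pool 2 libraries were nearly equal, with a ratio of 1.00 (0.922 to 1.09), and pool 1 gave 1.53 (1.39 to 1.68). For miR-141-3p, levels were 226 and 180 CPM in WT and 312 and 243 in KO. It had much the same ratio in each pool, 1.38 in pool 1 (1.24 to 1.53) and 1.35 in pool 2 (1.18 to 1.55), and its genotypes did not overlap. Total-UMI scaling gave ratios of 1.22 and 1.61, and the genotypes then overlapped, with 384 and 103 CPM in WT and 469 and 166 in KO.

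In order of mean TMM-scaled level in WT, miR-200a-3p (397 ± 176 CPM) came before miR-200c-3p, then miR-429-3p (215 CPM in each library), miR-141-3p (203 ± 33.0) and miR-200b-3p (187 ± 14.8). In KO, miR-200a-3p (470 ± 75.5 CPM) was followed by miR-200c-3p, miR-141-3p (277 ± 49.0), miR-429-3p (276 ± 123) and miR-200b-3p (247 ± 65.4; SD, n = 2 each). None of the neighbours in either order differed by more than the larger of their SDs.

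**Figure D2:**
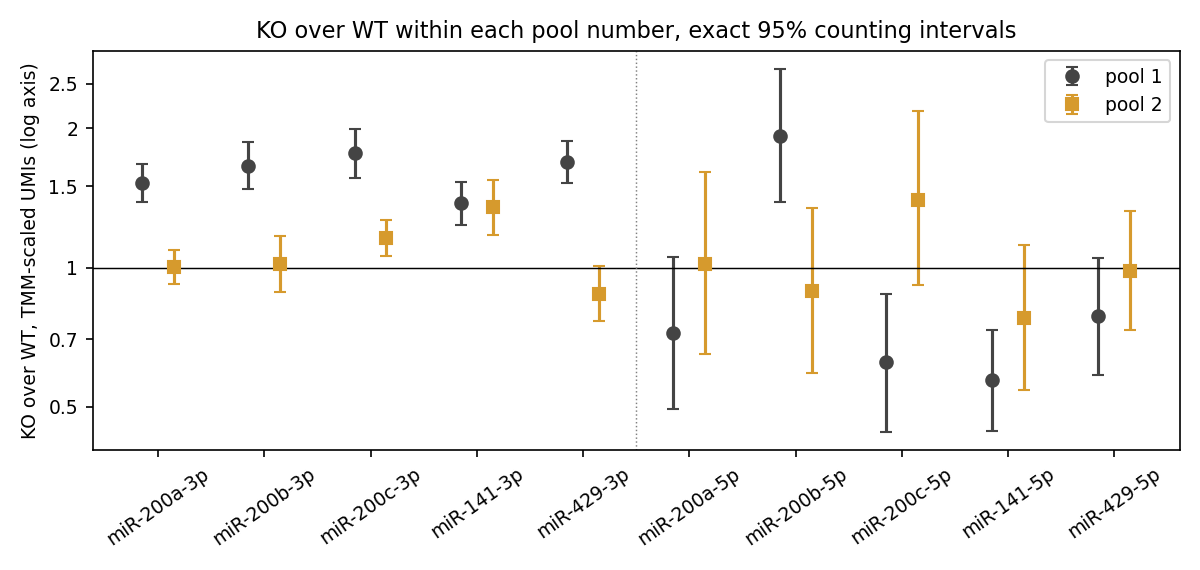
KO over WT ratio of TMM-scaled UMIs within pool 1 (circles) and pool 2 (squares) for the 5 members (left of the dotted line) and the 5p arms of the same hairpins (right), on a log axis; bars are exact 95% counting intervals. The members' pool 1 ratios lie between 1.38 and 1.77, while 4 of 5 of the 5p arms lie below 1 in pool 1.

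Counted over the members, 5 of 5 were higher in KO in pool 1 with TMM, where 49.3% of all miRNAs tested were higher, and 4 of 5 in pool 2, where 48.1% were. In both pool numbers 4 of 5 were higher, against a background of 24.5% of 1797 miRNAs, or 30.7% of the 352 that averaged at least 100 UMIs. Scaled on total UMIs, 5 of 5 were higher in both, against backgrounds of 24.4% and 33.8%. Both KO libraries lay above both WT libraries for 2 of 5 members with TMM, miR-200b-3p and miR-141-3p, against a background of 9.52%. With total UMIs this held for 1 of 5, miR-200c-3p, against 3.28%, so the member that separated the genotypes changed with the scaling. The TMM separation of miR-200b-3p rested on 201 CPM in KO-2 against 197 in WT-2, within counting error (pool 2 ratio interval 0.886 to 1.17). Members share pool, library and, within a cluster, a primary transcript, and are not replicates of the genotypes.

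No member differed between the genotypes beyond the spread of the libraries. With edgeR's quasi-likelihood test on UMI counts, 0 of 5 members and 0 of 1797 miRNAs tested had a Benjamini-Hochberg adjusted p under 0.05 (0% called), and 32 of 1797 but 0 of 5 members had an unadjusted p under 0.05. At that unadjusted threshold DESeq2 counted 28 and limma-voom 27, with 0 members each, and both also called 0. The log2 fold changes, KO over WT, were 0.45 for miR-141-3p (SE 0.54), 0.40 for miR-200b-3p (SE 0.54), 0.40 for miR-200c-3p (SE 0.65), 0.36 for miR-429-3p (SE 0.57) and 0.24 for miR-200a-3p (SE 0.60). Their median of 0.40 compares with -0.03 over all miRNAs tested and 0.05 over those averaging at least 100 UMIs. Unadjusted edgeR p-values ran from 0.424 to 0.693, and the adjusted p was 0.99995 for each member. For a single value compared across 2 against 2 libraries, the smallest two-sided exact permutation p is 0.333. Without WT-1 the estimates of miR-200a-3p and miR-200c-3p were -0.13 and -0.12, without KO-2 that of miR-200c-3p was -0.07, and without KO-1 that of miR-429-3p was -0.17.

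**Figure D3:**
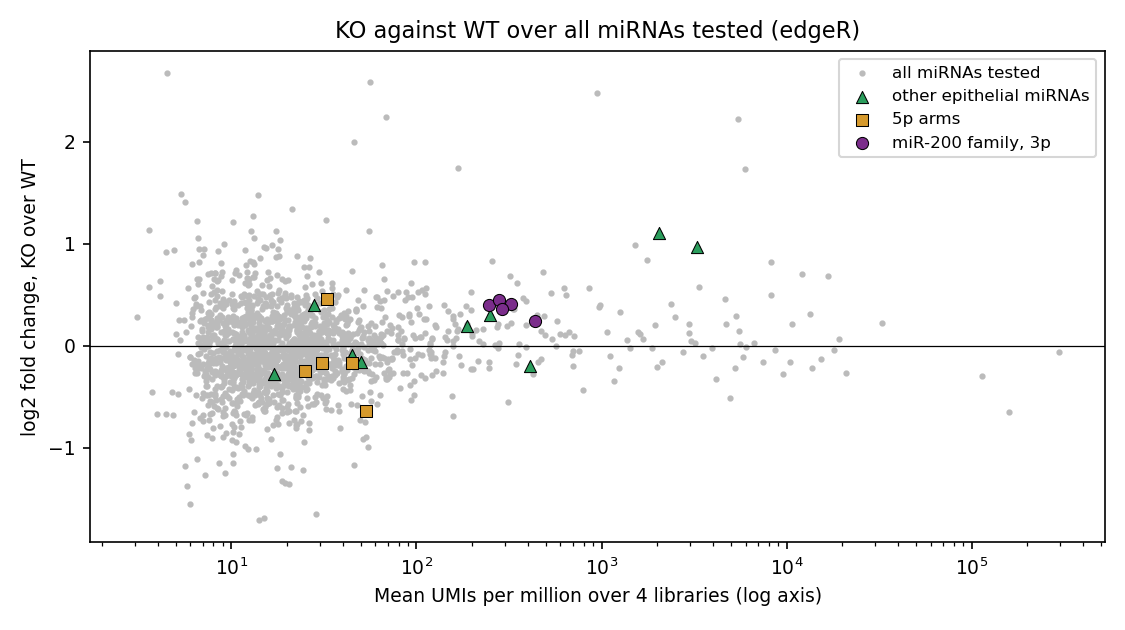
Log2 fold change of KO over WT (edgeR) against mean CPM on a log axis, for the 1797 miRNAs tested (grey) with the family, its 5p arms and 9 other epithelial miRNAs marked. The 5 members lie between 0.24 and 0.45, inside the cloud of miRNAs of like abundance.

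Each member's share of the family differed by pool number in the same direction in both genotypes, a comparison that needs no scaling between libraries. The share of family UMIs taken by miR-200c-3p was 15.4% in WT-1 (exact 95% binomial interval 14.1 to 16.8%) and 17.1% in KO-1 (16.0 to 18.3%). In pool 2 it was 28.3% in WT (26.6 to 30.0%) and 30.6% in KO (29.2 to 32.0%). Within each genotype the pool 2 share of miR-200c-3p was thus higher by more than counting error, and the genotypes of 1 pool number were close. The share of miR-200a-3p was also higher in pool 2, at 33.6% and 31.4% against 25.9% and 24.9% in pool 1 (WT first). The shares of the other 3 were lower in pool 2: 16.8% and 17.6% against 12.7% and 12.1% for miR-200b-3p, 20.4% and 21.7% against 13.8% and 11.4% for miR-429-3p, and 21.5% and 18.7% against 11.6% and 14.6% for miR-141-3p.

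The members whose shares were higher in pool 2, miR-200c-3p and miR-200a-3p, differ in seed and in cluster. Each belongs to 1 of the closest pairs above, with miR-200b-3p and miR-141-3p, whose shares were lower in pool 2. The split of counts within these pairs is uncertain, and so is that part of the make-up. Summed by seed, the AAUACUG members took 52.6% and 54.9% of family UMIs in WT-1 and WT-2 and 56.4% and 54.0% in KO, a narrow range. Summed by cluster, the chromosome 4 members made up 63.1% of WT-1, 60.1% of WT-2, 64.2% of KO-1 and 54.8% of KO-2 family UMIs. Within the chromosome 6 cluster, miR-200c-3p over miR-141-3p was 0.715 in WT-1 and 0.916 in KO-1 but 2.44 in WT-2 and 2.10 in KO-2. Within the chromosome 4 cluster, miR-200a-3p over miR-429-3p was 1.27 and 1.15 in pool 1 against 2.42 and 2.77 in pool 2 (WT first), whereas miR-200b-3p over miR-429-3p stayed between 0.807 and 1.06. Members of 1 cluster are known to be cut from a shared primary transcript.

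**Figure D4:**
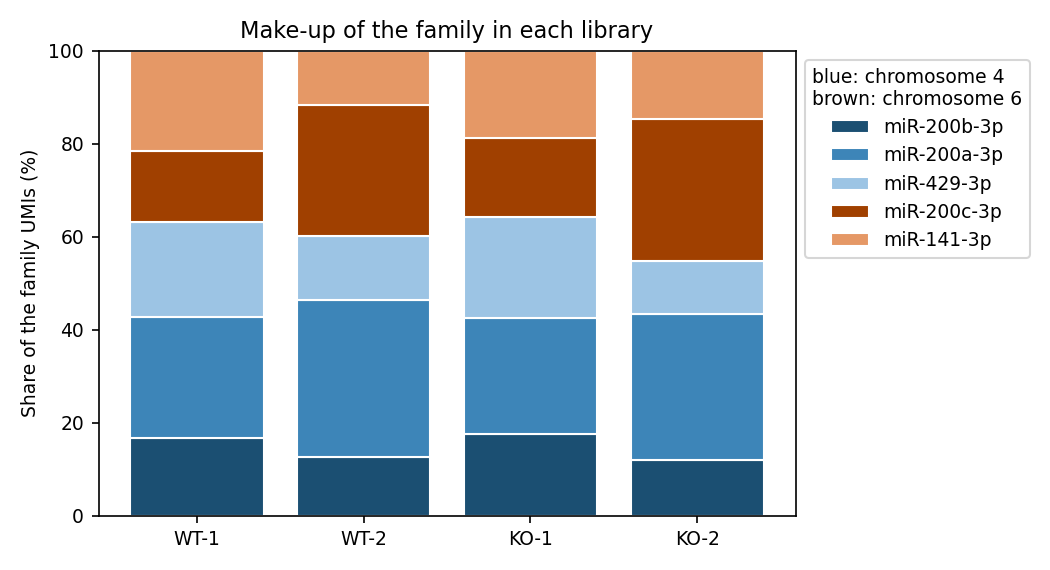
Share of the family's UMIs (%) taken by each member in each library, as stacked bars that sum to 100; blue members lie on chromosome 4 and brown members on chromosome 6. The miR-200c-3p segment is 15.4% and 17.1% in the pool 1 libraries and 28.3% and 30.6% in the pool 2 libraries.

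Each hairpin also gives a 5p arm, usually the less abundant product, and all 5 arms were listed. The chromosome 6 hairpins are printed because they had the lowest 3p to 5p ratios in WT-1; capitals mark the 5p and then the 3p product (RefSeq, GRCm38.p6, minus strand).
Mir141 hairpin: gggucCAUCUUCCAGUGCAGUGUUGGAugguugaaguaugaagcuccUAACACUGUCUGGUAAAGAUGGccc
Mir200c hairpin: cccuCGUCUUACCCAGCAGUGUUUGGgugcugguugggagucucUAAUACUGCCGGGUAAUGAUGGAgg
The 5p arms had 35 to 184 UMIs and were outnumbered by the 3p arm in every hairpin and library. The lowest of them were near the median miRNA of the libraries, at 31 to 47 UMIs, so their ratios rest on low counts. Over all 5 hairpins the 3p arms had 5.37 times the UMIs of the 5p arms in WT-1 (exact 95% interval 4.89 to 5.91), 10.8 in WT-2 (9.53 to 12.3), 10.6 in KO-1 (9.61 to 11.8) and 11.8 in KO-2 (10.6 to 13.2). WT-1 thus lay apart from the other 3 libraries, and WT-2 did not.

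By hairpin, the Mir200c ratio of 3p to 5p was 4.56 in WT-1 (3.64 to 5.75) against 12.9 in KO-1, 22.8 in WT-2 and 18.9 in KO-2. The Mir141 ratio was 3.29 in WT-1 (2.79 to 3.91), 5.27 in WT-2, 7.93 in KO-1 and 9.12 in KO-2, where the intervals of WT-2 (4.01 to 7.04) and KO-1 (6.44 to 9.85) overlapped. For Mir200a it was 10.1 in WT-1 against 21.4, 26.3 and 26.0 in KO-1, WT-2 and KO-2. For Mir429 it was KO-1 that stood apart, at 10.8 against 4.26 to 5.04, and for Mir200b all 4 libraries lay between 6.91 and 8.89.

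**Figure D5:**
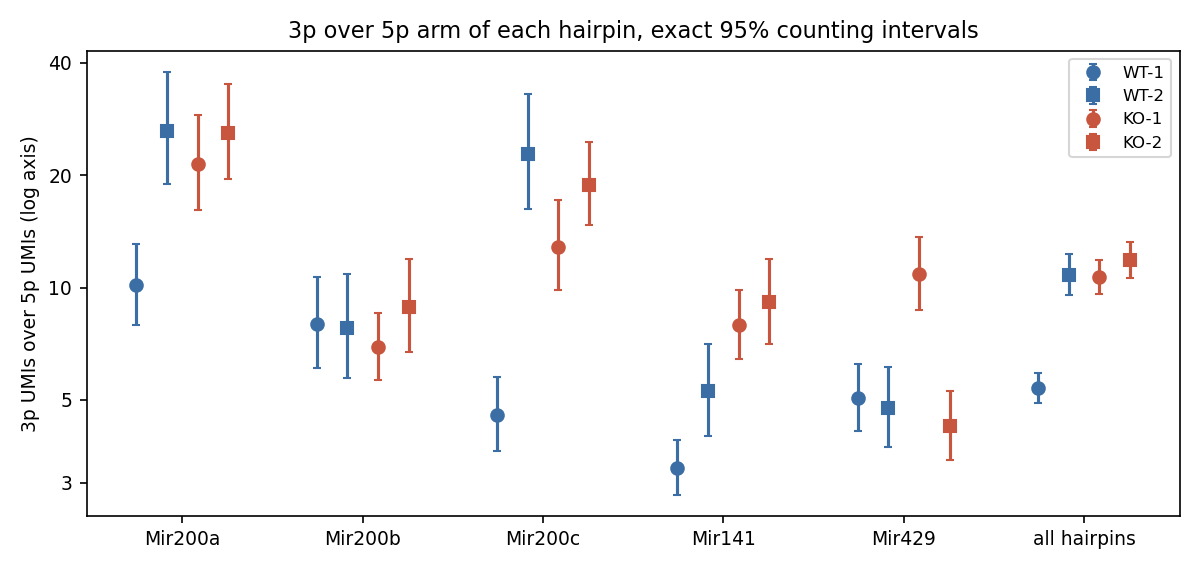
UMIs of the 3p arm over UMIs of the 5p arm for each hairpin and for all 5 summed, by library, on a log axis with exact 95% counting intervals. For all hairpins together WT-1 is at 5.37 and the other 3 libraries at 10.6 to 11.8.

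The 5p arms did not follow the 3p arms from WT to KO in pool 1. With TMM the summed 5p arms had a KO over WT ratio of 0.801 in pool 1 (0.702 to 0.914) and 0.980 in pool 2 (0.832 to 1.16), where the 3p arms had 1.59 and 1.07. On total UMIs the 5p ratios were 0.710 and 1.17, so the pool 2 direction changed with the scaling and that of pool 1 did not. Singly, miR-141-5p was at 0.572 in pool 1 (0.444 to 0.733) and miR-200c-5p at 0.625 (0.442 to 0.877), while miR-200b-5p was at 1.92 (1.39 to 2.69). Of the 5p arms 1 of 5 was higher in KO in pool 1 and 2 of 5 in pool 2, and 0 of 5 in both, against the TMM backgrounds above. Scaled on total UMIs these were 1, 4 and 1 of 5. On that scale the median ratio of all miRNAs tested was 0.880 in pool 1 and 1.18 in pool 2, and 24.4% were higher in both. The edgeR log2 fold changes of the 5p arms ran from -0.65 (miR-141-5p, SE 0.51) to 0.46 (miR-200b-5p, SE 0.46), and 0 of 5 were called.

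Other miRNAs of epithelia were less uniform. Of 9 fixed for comparison, 0 were called by edgeR, 5 had higher estimates in KO and 4 lower. Over all 1797 miRNAs tested, 851 estimates were higher and 946 lower. Among the 9, the highest estimates were those of miR-205-5p, known from basal epithelial cells, and miR-203-3p, a miRNA of differentiating keratinocytes. Counts of miR-205-5p were 4208 and 5167 UMIs in WT-1 and WT-2 and 8908 and 12838 in KO. Those of miR-203-3p were 3239 and 1646 against 7693 and 3851. With TMM the ratio of miR-205-5p was 2.21 in pool 1 and 1.82 in pool 2, and that of miR-203-3p 2.47 and 1.72, each above every family member in the same pool. Their log2 fold changes were 0.97 (SE 0.74) and 1.10 (SE 0.69), with an edgeR adjusted p of 0.99995 each. The cluster partners miR-182-5p (1.06 and 1.21), miR-183-5p (1.36 and 1.15) and miR-96-5p (0.829 and 0.828) lay on both sides of 1. However, miR-96-5p had only 23 to 49 UMIs, and its intervals (0.530 to 1.29 and 0.454 to 1.52) included 1. The pool 1 interval of miR-182-5p (0.927 to 1.22) did too. Ratios were 0.899 and 0.863 for miR-375-3p, of pancreatic islets and gut endocrine cells, and 1.07 and 0.684 for miR-31-5p. The airway ciliated cell miRNAs miR-34c-5p and miR-449a-5p, at 39 to 118 UMIs, had 1.64 and 1.02, and 1.05 and 0.795. Of the gut and liver epithelial miRNAs, miR-192-5p had ratios of 0.552 and 0.759, miR-194-5p 0.787 and 0.783, and miR-215-5p 1.01 and 1.71. Total-UMI scaling turned the pool 1 ratios of miR-182-5p (0.943), miR-31-5p (0.952), miR-449a-5p (0.931) and miR-215-5p (0.898) below 1, and the pool 2 ratio of miR-375-3p (1.03) above it. The median of all miRNAs tested on that scale was 0.880 in pool 1 and 1.18 in pool 2. Against these medians the named pool 1 ratios were still higher and that of miR-375-3p still lower, as with TMM.

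Summed markers of muscle, platelet and myeloid, stromal and endothelial sources also had higher shares in KO-1 than in WT-1, the pool with the family's larger ratio, and those of red blood cells and of gut and liver epithelium had lower shares. The 3 muscle miRNAs (miR-1a-3p, miR-133a-3p and miR-206-3p) took 0.396% and 0.424% of miRNA UMIs in WT-1 and WT-2 and 3.68% and 0.686% in KO. For the platelet and myeloid pair (miR-223-3p and miR-142a-3p) the WT shares were 2.15% and 1.13%, against 4.55% and 1.11% in KO. The 4 stromal miRNAs (miR-143-3p, miR-145a-5p, miR-199a-5p and miR-214-3p) took 0.580% and 0.523% against 0.888% and 0.334%, and the endothelial miR-126a-3p 0.317% and 0.185% against 0.527% and 0.163%. The 3 red blood cell miRNAs (miR-451a, miR-144-3p and miR-486a-5p) took 2.12% and 2.78% against 1.58% and 2.76%, and the 3 gut and liver epithelial miRNAs 0.852% and 0.659% against 0.470% and 0.621%. Among the stromal miRNAs miR-214-3p was an exception in pool 1, with 238 UMIs in WT-1 and 213 in KO-1. On total UMIs, each of these lists of more than 1 miRNA was split around 1 in pool 2. The median of all miRNAs tested there was 1.18. With TMM the platelet and myeloid pair was not split in pool 2, with miR-223-3p at 0.717 and miR-142a-3p at 0.998. KO over WT on total UMIs in pool 2 was 1.48 for miR-199a-5p and 1.81 for miR-214-3p, but 0.624 for miR-143-3p and 0.571 for miR-145a-5p. It was 1.19 for miR-142a-3p but 0.855 for miR-223-3p, and 1.15 and 2.42 for miR-1a-3p and miR-206-3p but 0.942 for miR-133a-3p. All of these markers were listed and none was at 0 in any library. Their part in the family's ratios was not tested, and in plasma fewer releasing cells and less RNA per cell cannot be told apart.

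The miRNAs whose levels ran most like the summed family were not epithelial markers of the lists used. Likeness was the distance between log2 TMM-scaled profiles over the 4 libraries, each centred on its mean, among 347 other miRNAs averaging at least 100 UMIs. The nearest was miR-224-5p at a distance of 0.106, with 285 and 288 UMIs in WT-1 and WT-2 and 433 and 385 in KO. It was followed by miR-126a-5p (0.146), miR-340-5p (0.159), miR-139-5p (0.205) and miR-134-5p (0.212), against a median distance of 0.823. The members lay at 0.362 from their own sum for miR-200a-3p, 0.475 for miR-200b-3p, 0.683 for miR-141-3p, 0.778 for miR-429-3p and 0.869 for miR-200c-3p. The 5 miRNAs above were picked as the nearest, so members lying farther off than these is little surprise. Placed among the 347 others, the members would rank 30, 61, 126, 161 and 189 in the same order. With 4 libraries such a distance is a description only.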

How the data were processed

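The deposited table of all libraries gives whole-number UMI counts and read counts per mature miRNA, with no normalization by the authors; libraries were made with a QIAseq kit that adds UMIs, per the labels' protocols. The authors' deposited log2 values differ from log2 of these counts by a constant in each library, and served as an alternative. Per the submitters' processing notes, FastQC 0.11.9 and the build GRCm38 (mm10) were used; no aligner or counter is stated there. The smallest count above 0 was 10 in pool 1 and 1 or 2 in pool 2. The 1809 miRNAs listed in both pools were used, and 1797 passed edgeR's default expression filter, all 5 members and 5p arms among them. piRNAs, 54 miRNAs listed in pool 1 only and 7 in pool 2 only were left out.

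KO was compared with WT in edgeR 4.0.16 under R 4.3.3 (two-sided quasi-likelihood F-test after TMM scaling, 2 residual degrees of freedom, Benjamini-Hochberg adjustment over all miRNAs tested), tested on simulated counts. SE is the log2 fold change divided by the square root of F. TMM factors were 1.70 and 1.50 in pool 1 and 0.574 and 0.684 in pool 2 (WT first). The labels do not say that a pool number marks a shared batch, so no block was used, and ratios are also given within pool numbers. Alternatives were other scalings and filters, a block for pool number, leaving out each library, limma-voom (limma 3.58.1), DESeq2 1.42.0, read counts and the log2 values. The named miRNAs were the members, their 5p arms, 2 epithelial lists and the 5 nearest profiles. Other marker lists are given as sums, with single miRNAs for some lists that were split in direction. Members and lists were chosen with earlier results of these data known. Intervals came from SciPy 1.17.1 (Python 3.11.15), and sequences matched by name for 10 of 10 arms.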

Additional observations from a re-analysis of the deposited data

Results flagged for a closer look

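With TMM scaling, 4 of the 10 arms of the family's hairpins had KO above WT in 1 pool number and below it in the other. Of all 1797 miRNAs tested, 49.3% were higher in KO in pool 1 and 48.1% in pool 2, but only 24.5% in both. Opposite directions were thus common and not particular to these arms. The difference between pool numbers was not tested, since each has 1 library per genotype. Among the members this was miR-429-3p, at 1.69 in pool 1 and 0.879 in pool 2. Among the 5p arms it was miR-200b-5p, at 1.92 and 0.892, miR-200c-5p, at 0.625 and 1.40, and miR-200a-5p, at 0.723 and 1.02. The pool 2 intervals of all 4 include 1, as does the pool 1 interval of miR-200a-5p (0.494 to 1.05).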

How the results depend on the processing

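No member was called under any of the 16 alternatives, and 76 of 80 alternative log2 fold changes of members kept their sign. The other 4 were -0.13 for miR-200a-3p and -0.12 for miR-200c-3p without WT-1, -0.07 for miR-200c-3p without KO-2 and -0.17 for miR-429-3p without KO-1. With 1 library left out these 3 ran up to 0.78 for miR-200a-3p, 1.30 for miR-200c-3p and 0.76 for miR-429-3p. Over all miRNAs 0 were called except for 0 to 3 with 1 library left out, and 18 and 10 with the replicate block when scaled on, or limited to, miRNAs averaging at least 100 UMIs; both fits were chosen after seeing the data and leave 1 residual degree of freedom. The KO over WT ratio of mean family shares, 1.36, was 1.20 without the 2 most abundant miRNAs in the total and 0.851 to 2.05 with 1 library left out. Leaving out 1 library leaves 1 genotype with only 1 pool number, and shares were higher in pool 1 within each genotype. What lay behind the 1.20 and behind the difference between pool numbers was not tested. With the replicate block the members' log2 fold changes ran from 0.29 to 0.51, with SEs of 0.25 to 0.33 and a lowest adjusted p of 0.898 (edgeR), and 0 miRNAs were called. The deviations of same-numbered libraries from their genotype's mean correlated at 0.527 over 1797 miRNAs, but the labels give them only a number in common. Of 40 alternative ratios within pools, 25 stayed within the counting interval. A genotype left with 1 library is assumed to vary like the other. With 2 libraries per genotype and members at 327 to 1298 UMIs, both the number of libraries and the depth limit these comparisons.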

Other observations

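The libraries of 1 genotype also differed by pool number, which no label explains. With TMM scaling pool 2 over pool 1 was 2.71 in WT and 1.78 in KO for miR-200c-3p, 1.91 and 1.26 for miR-200a-3p, 1.12 and 0.684 for miR-200b-3p, 1.00 and 0.520 for miR-429-3p and 0.794 and 0.778 for miR-141-3p, where the median over all miRNAs tested was 0.971 in WT and 1.01 in KO. Scaled on total UMIs all 5 were below 1 in both genotypes, from 0.918 for miR-200c-3p to 0.269 for miR-141-3p in WT and from 0.811 for miR-200c-3p to 0.237 for miR-429-3p in KO, with medians of 0.329 and 0.460 over all miRNAs.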
